A study of Bos taurus with 12 samples.

Results

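The genes described here encode 7 transcription factors known for driving epithelial to mesenchymal transition: SNAI1, SNAI2, TWIST1, TWIST2, ZEB1, ZEB2 and PRRX1. They were taken from the deposited raw count table as the rows whose Entrez identifier carries one of these bovine symbols, and all 7 were found among 18885 entries kept. All 7 passed the filter on low counts that left 13920 genes for testing. The choice of genes used their names and no measured value, but it was made with earlier results of these data known.

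RNA sequencing of poly(A) RNA was done on F7, a wild-type cattle (Bos taurus) cell line labelled as embryonic stem cells, in 12 libraries. The 4 groups are named by their culture condition and hold 3 libraries each. MC is the reference, whose treatment label is NC, 1/7MC is the second, 1/7MC+Pyr adds Pyr to it, and 1/7MC+Pyr+FGF adds FGF to that. The labels do not spell out MC, Pyr or FGF, give no doses, times or ages, and name no separate cultures, so p-values measure the spread between libraries of 1 line, which may be technical. In bulk RNA, fewer cells of a type and less RNA per cell cannot be told apart.

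Total counts ran from 27373759 to 44440972 per library. MC replicates 2 and 3 stood apart in how they were counted. Of 61 Entrez identifiers that occur more than once in the table, 53 carried differing counts in those 2 libraries and 0 did in each of the other 10. Over all genes, the median size of the log2 difference between MC replicate 1 and the mean of the other two was 0.18, against 0.083 between replicates 2 and 3. For this reason each test against MC was repeated with the other two left out and MC replicate 1 standing for the group, which assumes that a lone library varies like those of the other groups. Among the 7 genes, PRRX1 was 0.75 and ZEB2 0.46 log2 higher in MC replicate 1 than in the other two, and the other 5 differed by 0.11 or less.

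As background, epithelial to mesenchymal transition is the programme by which cells in a sheet give up their junctions and polarity and take on the form of migratory, matrix-producing cells. The Snail proteins (SNAI1, SNAI2) are zinc finger repressors that bind E-box motifs, among them those in the E-cadherin gene CDH1. The Twist proteins (TWIST1, TWIST2) are basic helix-loop-helix factors that pair with E proteins such as TCF3, TCF4 and TCF12. The ZEB proteins (ZEB1, ZEB2) combine zinc finger clusters with a homeodomain and recruit CtBP corepressors, and PRRX1 is a homeobox factor of limb, craniofacial and other mesenchyme. In the embryo these factors are known from gastrulation and from the neural crest.

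Levels are given as counts scaled to a common library total (CPM) after scaling by edgeR's trimmed mean of M values (TMM), and tests are edgeR's quasi-likelihood test with Benjamini-Hochberg adjustment over all genes tested. A gene is said to have risen or fallen where its adjusted p was under 0.05. Fold changes are log2 differences with their standard error (SE). CPM compares 1 gene between libraries and does not compare genes of different length.

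**Figure D1:**
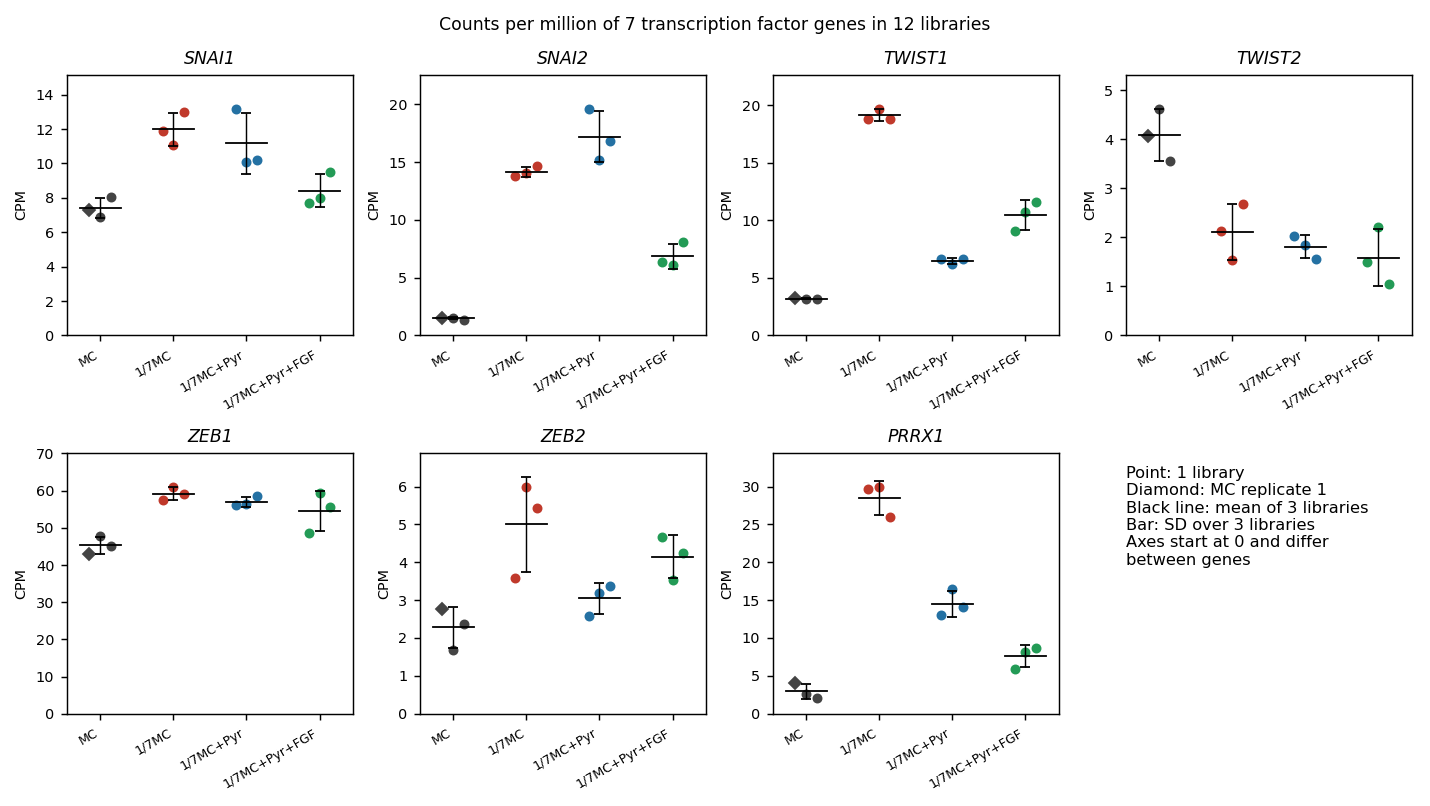
CPM (vertical axes, starting at 0 and differing between genes) of the 7 genes in the 4 groups, with 1 point per library, a diamond for MC replicate 1, a line for the mean and a bar for the SD of 3 libraries. SNAI2, TWIST1 and PRRX1 show the widest spread between groups, while ZEB1 lies between 42.9 and 61.0 CPM in all 12 libraries.

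SNAI1, a repressor of CDH1 needed at gastrulation, measured 7.28, 6.90 and 8.05 CPM in MC replicates 1, 2 and 3. It measured 11.9, 11.1 and 13 CPM in 1/7MC. The 3 libraries of 1/7MC+Pyr stood at 13.2, 10.1 and 10.2 CPM, and those of 1/7MC+Pyr+FGF at 7.71, 8.02 and 9.49 CPM. The 1/7MC libraries were thus all above the MC libraries, those with Pyr overlapped them, and those with FGF reached back into the MC range. SNAI1 rose in 1/7MC against MC by 0.69 ± 0.14 log2 (adjusted p = 0.00176). Against MC replicate 1 alone the rise was 0.73 ± 0.22 (adjusted p = 0.0256). The difference of 1/7MC+Pyr from 1/7MC was -0.10 ± 0.14 (adjusted p = 0.681), and that of 1/7MC+Pyr+FGF from 1/7MC+Pyr -0.41 ± 0.14 (adjusted p = 0.147), with no overlap between those libraries. From 1/7MC to 1/7MC+Pyr+FGF, SNAI1 fell by 0.51 ± 0.14 (adjusted p = 0.0179). That call was lost when 1/7MC replicate 3 was left out (adjusted p = 0.0748), and likewise for 1/7MC+Pyr+FGF replicate 1 (0.0663) or 2 (0.0547).

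SNAI2, also called Slug, a Snail repressor well known from neural crest and mesenchyme, was the least counted of the 7 genes in MC, with 1.54, 1.53 and 1.37 CPM. Those libraries hold 55, 48 and 37 counts. It stood at 13.8, 14.1 and 14.7 CPM in 1/7MC and at 19.6, 15.2 and 16.8 CPM in 1/7MC+Pyr. The 1/7MC+Pyr+FGF libraries lay between, at 6.37, 6.05 and 8.11 CPM. No group overlapped another. SNAI2 fell by 1.33 ± 0.14 log2 from 1/7MC+Pyr to 1/7MC+Pyr+FGF, a 2.51-fold lower level (adjusted p = 0.000593), and this held with any of the 6 libraries left out (highest adjusted p = 0.00609). The step from 1/7MC to 1/7MC+Pyr, 0.28 ± 0.14, did not pass (adjusted p = 0.184). Against MC, SNAI2 rose in all 3 other groups, by 3.25 ± 0.16 in 1/7MC, 3.53 ± 0.16 in 1/7MC+Pyr (11.6-fold, adjusted p = 3.93e-08) and 2.20 ± 0.16 in 1/7MC+Pyr+FGF (4.60-fold, adjusted p = 1.38e-06). With MC replicate 1 alone these were 3.21, 3.49 and 2.13, and all 3 passed. In order of level the groups ran MC, 1/7MC+Pyr+FGF, 1/7MC, 1/7MC+Pyr, and of these neighbours the last pair did not differ beyond the threshold.

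TWIST1, a factor of cranial neural crest and mesoderm, was flat within MC, at 3.22, 3.16 and 3.15 CPM. In 1/7MC it reached 18.9, 19.7 and 18.8 CPM. With Pyr it stood at 6.65, 6.21 and 6.68 CPM, and in 1/7MC+Pyr+FGF at 9.11, 10.7 and 11.6 CPM. The 4 groups did not overlap, and each neighbouring pair in the order MC, 1/7MC+Pyr, 1/7MC+Pyr+FGF, 1/7MC passed the test. TWIST1 rose by 2.59 ± 0.12 log2 in 1/7MC against MC, and by 2.58 ± 0.21 against MC replicate 1 alone (adjusted p = 3.10e-06). It fell by 1.55 ± 0.12 with Pyr, to a 2.94-fold lower level (adjusted p = 4.93e-06). It then rose by 0.69 ± 0.11 with FGF, 1.61-fold (adjusted p = 0.00891). Each of these calls held with any 1 library left out (the last with a highest adjusted p of 0.0405), while in the length-scaled signal tested with limma the last was 0.55 with an adjusted p of 0.0504. TWIST1 and SNAI2 therefore moved in opposite directions when FGF was added, each past the threshold.

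TWIST2, the close relative of TWIST1 known from dermis, measured 4.06, 4.63 and 3.56 CPM in MC. It measured 2.13, 1.54 and 2.69 CPM in 1/7MC, 2.02, 1.84 and 1.56 CPM in 1/7MC+Pyr, and 1.5, 2.21 and 1.05 CPM in 1/7MC+Pyr+FGF. Every MC library lay above every other library, and the other 3 groups overlapped. TWIST2 was the only 1 of the 7 genes to fall in any group against MC. The fall was 0.95 ± 0.27 log2 in 1/7MC (adjusted p = 0.0116), and the log2 differences were -1.17 ± 0.27 in 1/7MC+Pyr (adjusted p = 0.00693) and -1.37 ± 0.27 in 1/7MC+Pyr+FGF (adjusted p = 0.0026). With MC replicate 1 alone the sizes were nearly the same, -0.93, -1.15 and -1.38, but only the last passed (adjusted p = 0.0264), the first having an adjusted p of 0.0835 and the second of 0.0712. None of the comparisons among the 3 other groups passed for TWIST2, with adjusted p of 0.645, 0.728 and 0.292. Its counts, 37 to 145 per library, were among the lowest of the 7 genes.

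ZEB1, a repressor of CDH1 and of the microRNA-200 family, measured 42.9, 47.7 and 45.1 CPM in MC. It measured 57.5, 61.0 and 59.1 CPM in 1/7MC and 56.1, 56.4 and 58.6 CPM in 1/7MC+Pyr. With FGF on top it spread over 48.7, 59.4 and 55.7 CPM. All 9 libraries outside MC were above the 3 MC libraries, and the 3 groups outside MC overlapped. The rise in 1/7MC was small, 0.39 ± 0.09 log2 or 1.31-fold (adjusted p = 0.00382), and 0.48 ± 0.15 against MC replicate 1 alone (adjusted p = 0.0317). In 1/7MC+Pyr it was 0.33 ± 0.09 (adjusted p = 0.0153), a call lost against MC replicate 1 alone (adjusted p = 0.0934) and with either MC replicate 3 (0.0588) or 1/7MC+Pyr replicate 3 (0.0579) left out. In 1/7MC+Pyr+FGF it was 0.27 ± 0.09 (adjusted p = 0.0364), a call that held in 1 of the 6 fits with a library left out (the one lacking 1/7MC+Pyr+FGF replicate 1) and was lost against MC replicate 1 alone (adjusted p = 0.17). Differences of ZEB1 among the 3 groups outside MC were at most 0.12 log2 in size and did not pass.

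ZEB2, the second ZEB factor, known from neural crest and neural development, measured 2.77, 1.69 and 2.38 CPM in MC and 3.58, 5.99 and 5.43 CPM in 1/7MC. It measured 2.57, 3.19 and 3.37 CPM in 1/7MC+Pyr and 4.66, 3.54 and 4.25 CPM in 1/7MC+Pyr+FGF. The 1/7MC group had the highest mean and also the widest spread (5.00 ± 1.26 CPM, SD, n = 3), its replicate 1 lying among the libraries with FGF. The 1/7MC+Pyr libraries overlapped those of MC, and the 1/7MC+Pyr+FGF libraries lay above both. ZEB2 rose by 1.13 ± 0.24 log2 in 1/7MC against MC (adjusted p = 0.0019), but the difference from MC replicate 1 alone was 0.87 ± 0.31 (adjusted p = 0.0618). It fell by 0.72 ± 0.23 with Pyr (adjusted p = 0.0487), only just past the threshold. That fall was passed in 1 of the 6 fits with a library left out, the one without 1/7MC replicate 1, and the others gave adjusted p up to 0.162. With FGF on top of Pyr ZEB2 differed by 0.45 ± 0.23 (adjusted p = 0.31). Against MC it stood 0.86 ± 0.24 higher in 1/7MC+Pyr+FGF (adjusted p = 0.015), a call lost without MC replicate 2 (0.0682), without 1/7MC+Pyr+FGF replicate 1 (0.054) and against MC replicate 1 alone (0.273). In the RefSeq annotation of the assembly ARS-UCD2.0, which is not the build of the counts, ZEB2 overlaps 1 other annotated gene, the protein-coding LOC613677. ZEB1 overlaps 6, which are noncoding RNA genes and a pseudogene. How reads in the overlaps were counted was not tested.

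PRRX1, the homeobox factor, measured 4.03, 2.65 and 2.12 CPM in MC, the first of these being MC replicate 1. It measured 29.6, 29.97 and 25.9 CPM in 1/7MC, 13.1, 16.4 and 14.1 CPM in 1/7MC+Pyr, and 5.93, 8.11 and 8.70 CPM in 1/7MC+Pyr+FGF. The groups did not overlap and stepped down from 1/7MC through 1/7MC+Pyr and 1/7MC+Pyr+FGF to MC. PRRX1 rose in 1/7MC by 3.27 ± 0.22 log2, 9.62-fold (adjusted p = 3.22e-07). Against MC replicate 1 alone it rose 7.12-fold, 2.83 ± 0.26 log2 (adjusted p = 5.95e-06). It fell by 0.97 ± 0.20 with Pyr (adjusted p = 0.00512), a call that held with any 1 library left out. It fell by a further 0.94 ± 0.20 with FGF (adjusted p = 0.0305), but this call held only in the fit without 1/7MC+Pyr+FGF replicate 3. Without each of the other 5 libraries (1/7MC+Pyr replicates 1, 2 and 3, 1/7MC+Pyr+FGF replicates 1 and 2) the adjusted p was between 0.0581 and 0.132. Both steps together, 1/7MC+Pyr+FGF against 1/7MC, gave a fall of 1.91 ± 0.20, to a 3.77-fold lower level (adjusted p = 4.13e-05). Even so PRRX1 stayed above MC in 1/7MC+Pyr+FGF, by 1.35 ± 0.22 against the 3 MC libraries (adjusted p = 0.000641) and by 0.89 ± 0.24 against MC replicate 1 alone (adjusted p = 0.0277).

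**Figure D2:**
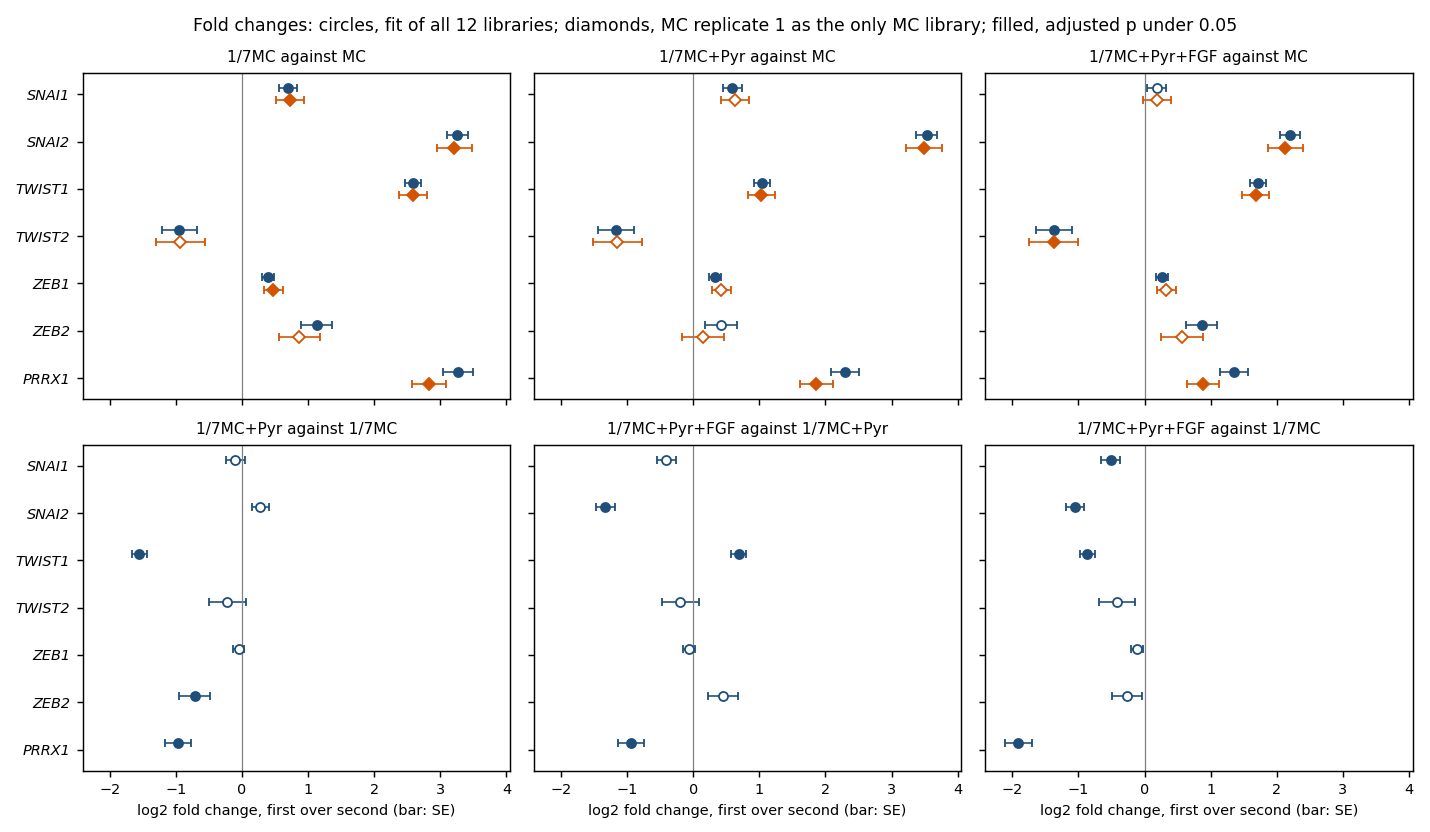
Log2 fold change (horizontal axes, bars are SE) of the 7 genes in the 6 comparisons, with circles for the fit of all 12 libraries, diamonds for the fit in which MC replicate 1 stands for MC, and filled symbols where the adjusted p was under 0.05. With FGF added to 1/7MC+Pyr, TWIST1 lies at 0.69 and SNAI2 at -1.33.

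Counted over the 7 genes, 6 rose (SNAI1, SNAI2, TWIST1, ZEB1, ZEB2, PRRX1) and 1 fell (TWIST2) in 1/7MC against MC, where 45.0% of all genes tested passed, 23.7% upward and 21.3% downward. Their median was 1.13 log2, beside 0.0048 over all genes. With MC replicate 1 alone 5 rose and 0 fell, against 23.9% of genes passing, 14.0% upward and 9.96% downward. There, 1 of the 7 was lower at an unadjusted p under 0.05 (TWIST2), and DESeq2 on all 12 libraries called 1 fall. The split of all genes was 3303 higher and 2965 lower, and 3882 and 2194 in the length-scaled signal. With a stricter filter (at least 1 CPM in at least 3 libraries) it turned, to 2878 higher and 3225 lower.

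With Pyr added, 0 of the 7 rose and 3 fell (TWIST1, PRRX1, ZEB2), while 18.1% of all genes passed, 8.08% upward and 10.1% downward. No member was higher at an unadjusted p under 0.05 by edgeR, and DESeq2 called 0. The median of the 7 was -0.22 log2 beside -0.011 over all genes. That comparison shares the 1/7MC libraries with the one before it, so that opposite signs in the pair are not independent. The split of all genes was 1125 higher and 1400 lower, and 848 and 1764 with scaling by library size only.

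With FGF added to 1/7MC+Pyr, 1 of the 7 rose (TWIST1) and 2 fell (SNAI2, PRRX1), and 2.76% of all genes passed, 0.639% upward and 2.12% downward. Between 1/7MC+Pyr+FGF and 1/7MC, 0 rose and 4 fell (SNAI1, SNAI2, TWIST1, PRRX1), where 27.6% of genes passed. There too no member was higher at an unadjusted p under 0.05, and DESeq2 called 0. The fall of SNAI2 was 1.05 ± 0.14 log2 (adjusted p = 0.000178) and that of TWIST1 0.87 ± 0.11 (adjusted p = 0.000155). The split of all genes was 1656 higher and 2186 lower in that comparison, 1011 and 2695 with scaling by library size only, and 899 and 2582 in the length-scaled signal.

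Against MC, 5 of the 7 rose in 1/7MC+Pyr (SNAI1, SNAI2, TWIST1, ZEB1, PRRX1) and TWIST2 fell, beside 28.4% of all genes. TWIST1 was 1.03 ± 0.12 log2 higher (adjusted p = 5.67e-05) and PRRX1 2.30 ± 0.22 (adjusted p = 9.93e-06). SNAI1 was 0.59 ± 0.14 higher (adjusted p = 0.00863), and 0.63 ± 0.22 against MC replicate 1 alone (adjusted p = 0.0894). In 1/7MC+Pyr+FGF 5 rose (SNAI2, TWIST1, ZEB1, ZEB2, PRRX1) and TWIST2 fell, beside 32.5% of all genes. With MC replicate 1 alone, 3 rose in each, SNAI2, TWIST1 and PRRX1, beside 9.71% of all genes (6.56% upward) for 1/7MC+Pyr and 12%, 5.86% upward and 6.13% downward, for 1/7MC+Pyr+FGF. TWIST2 fell in the second of these. The split of all genes for 1/7MC+Pyr was 2115 higher and 1834 lower, 942 and 452 with MC replicate 1 alone, and 2510 and 1263 in the length-scaled signal. It turned to 1958 higher and 2046 lower with scaling by library size only, and to 1796 and 2275 with the stricter filter. For 1/7MC+Pyr+FGF the split was 2377 higher and 2150 lower, and turned in the same 2 settings, to 1958 and 2524 and to 1882 and 2454, and to 842 and 881 with MC replicate 1 alone.

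Of 3 pairs of relatives within a family, SNAI2 and SNAI1 changed their ratio between groups past the threshold, and the pairs TWIST1 and TWIST2 and ZEB1 and ZEB2 did not pass over the 9 libraries outside MC. The log2 CPM of SNAI2 minus that of SNAI1 in the same library averaged -2.28 ± 0.20 in MC (SD, n = 3), 0.25 ± 0.09 in 1/7MC, 0.63 ± 0.08 in 1/7MC+Pyr and -0.30 ± 0.09 in 1/7MC+Pyr+FGF. No group overlapped another. Over the 9 libraries outside MC, an exact permutation test of the difference between groups gave p = 0.00357, the smallest this design allows, and 0.0107 after adjustment over the 3 pairs tested. Both genes are read from the same library, so its depth scaling cancels out of the difference.

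TWIST1 minus TWIST2 averaged -0.35 ± 0.19 in MC, 3.17 ± 0.43 in 1/7MC, 1.82 ± 0.20 in 1/7MC+Pyr and 2.73 ± 0.60 in 1/7MC+Pyr+FGF. Over the 9 libraries the exact permutation test gave p = 0.05 and an adjusted p of 0.075. The outcome depended on single libraries: with 1/7MC+Pyr+FGF replicate 2 or 3 left out the adjusted exact permutation p was 0.0429 or 0.0161, and with any of the other 7 left out it did not pass. With MC replicate 1 added as a group of its own the adjusted p was 0.0075 (exact permutation, 10 libraries). ZEB1 minus ZEB2 averaged 4.30 ± 0.43, 3.58 ± 0.35, 4.21 ± 0.18 and 3.70 ± 0.34 in the same order of groups. That pair did not pass (exact permutation p = 0.104, and the same after adjustment), nor did it with all 12 libraries (adjusted exact permutation p = 0.0782).

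**Figure D3:**
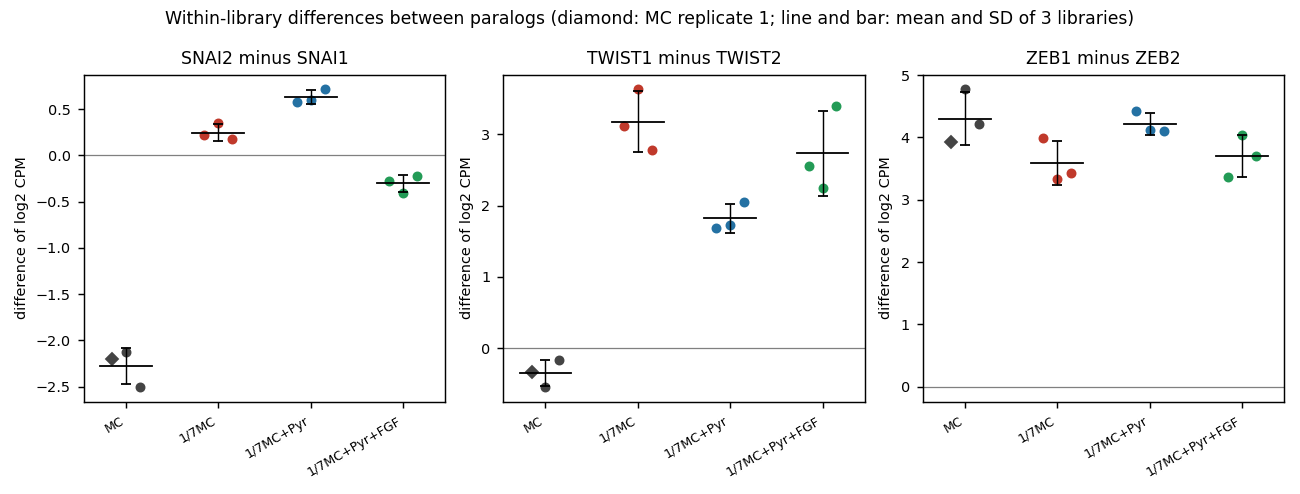
Difference of log2 CPM within each library (vertical axes) for SNAI2 minus SNAI1, TWIST1 minus TWIST2 and ZEB1 minus ZEB2 in the 4 groups, with 1 point per library, a diamond for MC replicate 1, a line for the mean and a bar for the SD of 3 libraries. For SNAI2 minus SNAI1 the 4 groups do not overlap: the mean is -2.28 in MC, 0.25 in 1/7MC, 0.63 with Pyr and -0.30 with FGF on top. The 2 genes differ in length, so the sign of a difference does not rank them.

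Levels of different genes were compared on a length-scaled scale, count per deposited gene length, rescaled to the same total in each library. That length was 1683 bases for ZEB2 and 5279 for ZEB1, and whether it covers each whole gene was not tested. On it ZEB1 was the highest of the 7 in each MC library, at 15.8 to 17.1, and SNAI1 followed at 7.63 to 8.83. ZEB1 made up 39.2% to 43.3% of the sum of the 7 in MC and 22.6% to 23.4% in 1/7MC. In 1/7MC the highest was TWIST1, at 25.4, 29.1 and 26.3, or 25.9% to 27.2% of the sum. In 1/7MC+Pyr, SNAI2 held 21.8% to 25.7% of the sum and TWIST1 11.8% to 12.6%, an order that was the other way round with FGF, at 9.61% to 12.3% for SNAI2 and 22.0% to 23.9% for TWIST1. The sum itself was 38.0 to 43.0 in MC, 93.7 to 107 in 1/7MC, 69.8 to 80.9 in 1/7MC+Pyr and 50.6 to 64.6 in 1/7MC+Pyr+FGF. These ranges do not overlap, and no test was run on the sum.

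**Figure D4:**
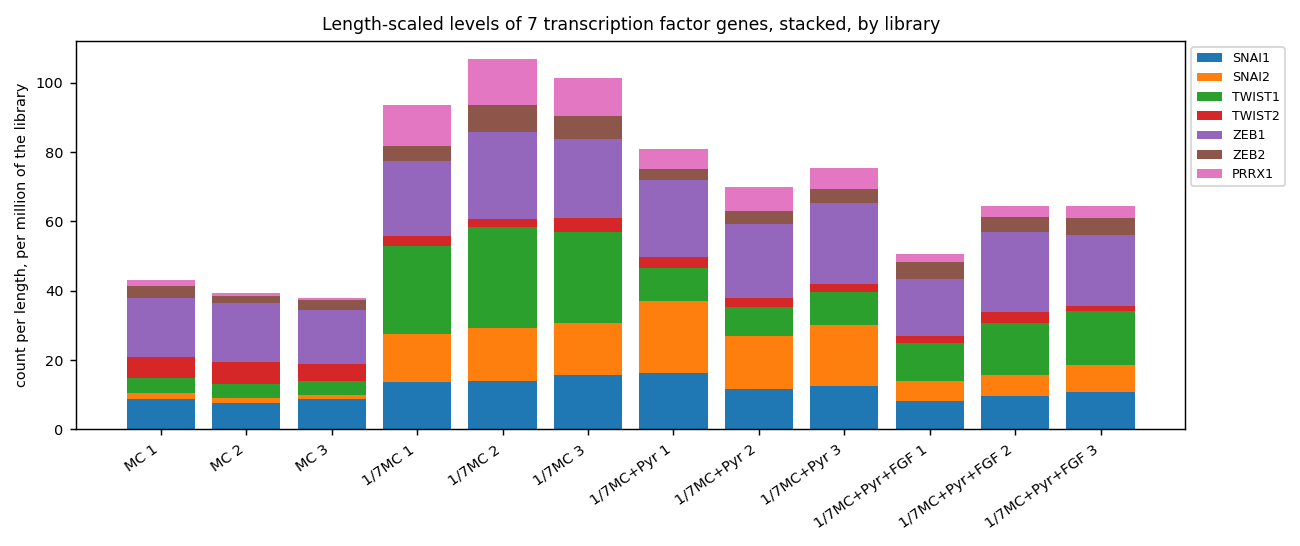
Count per deposited gene length, rescaled to the same total in each library (vertical axis, from 0), of the 7 genes stacked for each of the 12 libraries. The stacked sum is lowest in the MC libraries (38.0 to 43.0) and highest in the 1/7MC libraries (93.7 to 107), with ZEB1 the largest segment in MC and TWIST1 in 1/7MC.

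Around these factors, genes were followed in lists by role. The shares of all genes that passed, 23.7% upward and 21.3% downward in 1/7MC against MC, 8.08% and 10.1% with Pyr, and 0.639% and 2.12% with FGF added to Pyr, stand beside each count below. Counts against MC replicate 1 alone belong with the lower shares given above for that fit. The epithelial list holds junction and polarity genes and also keratins and regulators of epithelial cells. Of its 28 genes tested, 21 fell and 1 rose in 1/7MC against MC (median -1.18 log2, and -1.27 against MC replicate 1 alone). Whether the 7 factors repress these genes here was not tested. CDH1, or E-cadherin, averaged 496 CPM in MC and 121 CPM in 1/7MC, a fall of 2.04 ± 0.20 (adjusted p = 6.41e-06). EPCAM, an epithelial adhesion molecule, fell by 2.20 ± 0.12, and ESRP1, a splicing regulator of epithelial cells, by 2.23 ± 0.14. The tight junction gene OCLN fell by 1.54 ± 0.09, the polarity gene CRB3 by 1.06 ± 0.17, and OVOL2, a repressor of ZEB1, by 1.78 ± 0.29. GRHL2, another epithelial factor, was at 0.437 CPM in 1/7MC and 0.408 CPM in MC, a difference of 0.09 ± 0.49 (adjusted p = 0.898).

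With Pyr, 10 of the 28 epithelial genes rose and 1 fell (median 0.41 log2). CDH1 rose by 0.89 ± 0.20 to 223 CPM (adjusted p = 0.00825) and OCLN by 0.87 ± 0.09 (adjusted p = 6.10e-05). OVOL2 rose by 1.08 ± 0.30 (adjusted p = 0.0244), at a level near 1.01 CPM, a call lost when 1/7MC replicate 1 (0.0924) or 2 (0.0723) or 1/7MC+Pyr replicate 2 (0.0938) was left out. EPCAM, at 0.24 ± 0.11 (adjusted p = 0.163), and ESRP1, at 0.44 ± 0.14 (adjusted p = 0.0507), did not pass, though ESRP1 did by DESeq2 (0.0231), in edgeR with relative log expression scaling (0.0481) and without 1/7MC+Pyr replicate 1 (0.0195). The 1 fall was absent without 1/7MC replicate 1, 2 or 3, or without 1/7MC+Pyr replicate 2 or 3.

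With FGF on top, 3 epithelial genes rose and 5 fell. The rises, named here after their values were seen, were the simple-epithelium keratin genes KRT18, by 0.91 ± 0.13 (adjusted p = 0.00449), and KRT8, by 0.62 ± 0.12 (adjusted p = 0.0212), and the desmosome gene PKP2, by 0.47 ± 0.08 (adjusted p = 0.0111). The summed level of the 30 epithelial genes, to which KRT8 adds 1230 of its CPM with FGF, was 2376 to 2439 CPM in 1/7MC+Pyr and 2807 to 3104 CPM with FGF, so the sum was higher while the median difference was -0.35 log2. It was 3307 to 3817 CPM in MC and 1672 to 1838 CPM in 1/7MC. EPCAM fell by 1.07 ± 0.11 (adjusted p = 0.000593) and ESRP1 by 0.99 ± 0.14 (adjusted p = 0.00466), both held with any 1 library left out. CDH1 fell by 0.95 ± 0.20 to 116 CPM (adjusted p = 0.0261), a call that was lost without 1/7MC+Pyr replicate 1 or 3 or 1/7MC+Pyr+FGF replicate 1 or 3 (adjusted p up to 0.125). The number that fell was 8 without 1/7MC+Pyr replicate 2 and by DESeq2, and 3 without 1/7MC+Pyr replicate 1 or 3.

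Of the 30 mesenchymal genes, 28 rose and 0 fell in 1/7MC against MC (median 1.67 log2, 24 and 0 against MC replicate 1 alone). At an unadjusted p under 0.05, 0 were lower, and DESeq2 called 0 falls. COL1A1, the fibrillar collagen chain, rose by 2.11 ± 0.28 log2 and FN1, fibronectin, by 1.66 ± 0.26. VIM, or vimentin, rose by 1.03 ± 0.14 and SPARC, a matricellular protein, by 1.43 ± 0.13. The gelatinase MMP2 rose by 0.49 ± 0.18 (adjusted p = 0.0385), lost against MC replicate 1 alone (0.115) and, with a library left out, in 5 of 6 fits (all but the one without 1/7MC replicate 3). CDH2, or N-cadherin, the cadherin that often replaces E-cadherin, was at 458 CPM in 1/7MC and 450 CPM in MC, with a difference of 0.03 ± 0.12 (adjusted p = 0.878). With Pyr 5 mesenchymal genes rose and 5 fell, counts that depended on single libraries. The rises became 3 without 1/7MC replicate 1 or 3 or 1/7MC+Pyr replicate 1, and 9 without 1/7MC replicate 2. The falls became 3 without 1/7MC replicate 2 or 1/7MC+Pyr replicate 2, while leaving out 1/7MC+Pyr replicate 3 gave 2. FN1 rose by 1.04 ± 0.25 (adjusted p = 0.0142), a call lost when 1/7MC replicate 1 (0.0663) or 3 (0.0636) or 1/7MC+Pyr replicate 1 (0.0588) was left out. With FGF 0 rose and 7 fell, but 1 fell without 1/7MC+Pyr replicate 1 or 3 or 1/7MC+Pyr+FGF replicate 1 or 2, and 3 without 1/7MC+Pyr+FGF replicate 3. At an unadjusted p under 0.05, 0 of the 30 were higher, and DESeq2 called 0 rises. SPARC fell by 0.57 ± 0.13 there (adjusted p = 0.0372), a call that held only without 1/7MC+Pyr replicate 2.

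**Figure D5:**
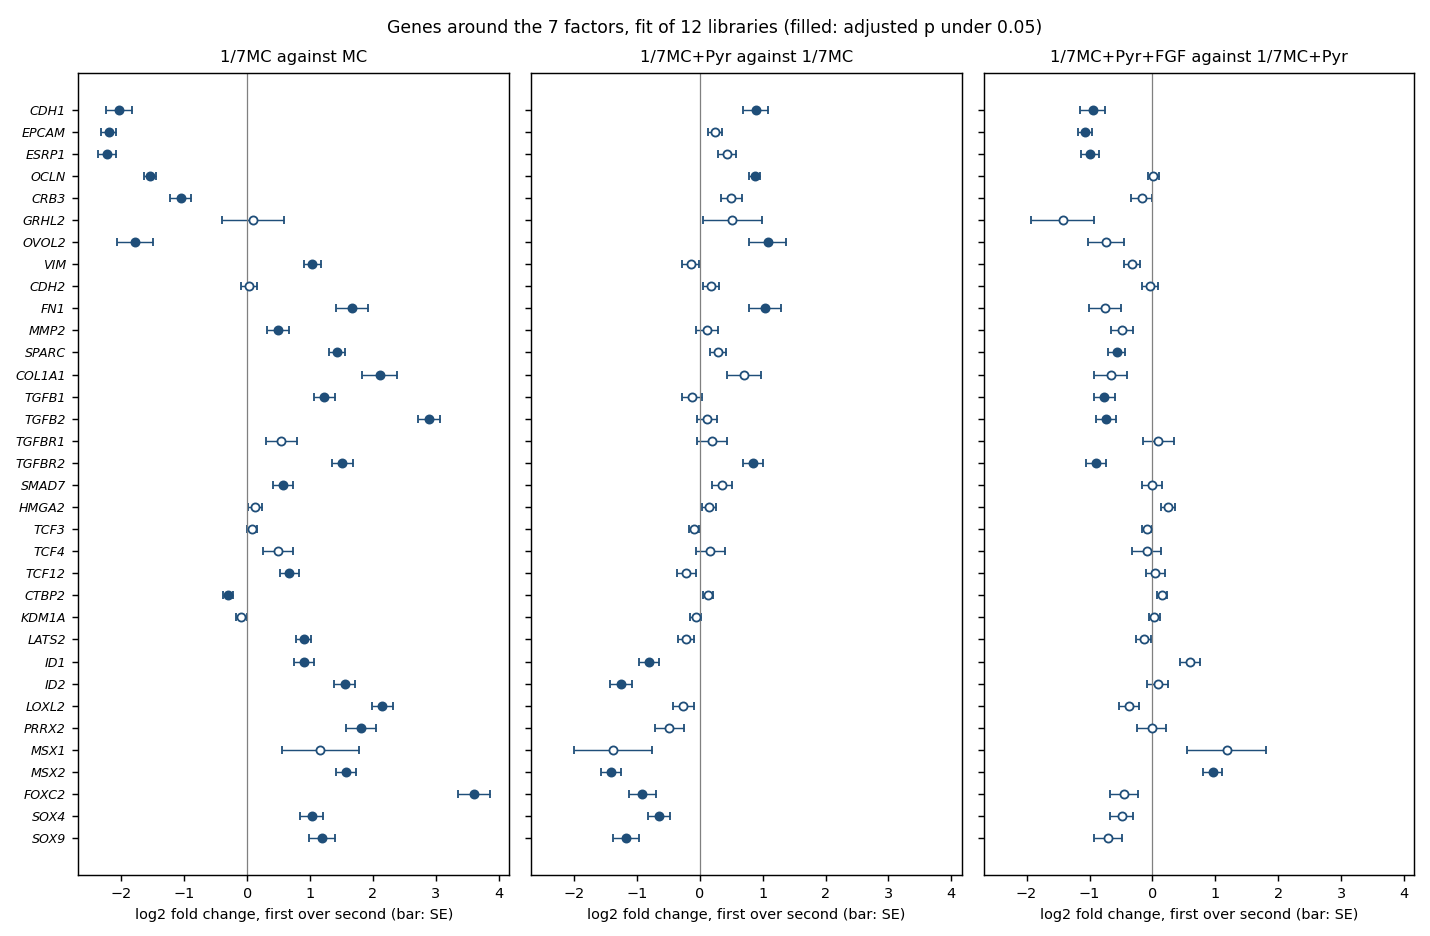
Log2 fold change (horizontal axes, bars are SE) of genes of epithelial, mesenchymal, inducer, partner and related factor roles in 3 comparisons, fit of 12 libraries, filled where the adjusted p was under 0.05. CDH1 lies at -2.04, 0.89 and -0.95, and ID2 at 1.55, -1.26 and 0.08.

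Inducers are ligands, receptors and mediators upstream of the 7 factors, chiefly of the transforming growth factor beta pathway. Of 28 tested, 14 rose and 4 fell in 1/7MC against MC (12 and 2 against MC replicate 1 alone, and 2 falls without 1/7MC replicate 1). The ligand TGFB2 rose by 2.89 ± 0.18 log2 and TGFB1 by 1.23 ± 0.17, and the receptor TGFBR2 rose by 1.52 ± 0.16. TGFBR1 was not stable, at 0.54 ± 0.24 (adjusted p = 0.0848) over 12 libraries and -0.09 ± 0.15 against MC replicate 1 alone. SMAD7, the feedback inhibitor, rose by 0.57 ± 0.16 (adjusted p = 0.011), lost against MC replicate 1 alone (0.0924) and without 1/7MC replicate 2 (0.056). HMGA2, a chromatin factor that acts upstream of SNAI1 and TWIST1, differed by 0.13 ± 0.11 (adjusted p = 0.372).

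With Pyr 2 inducers rose and 5 fell. TGFBR2 rose by 0.85 ± 0.16 (adjusted p = 0.0029), while TGFB2, at 0.11 ± 0.16, and TGFB1, at -0.12 ± 0.16, did not pass (adjusted p = 0.691 and 0.665). With FGF 1 inducer rose and 6 fell, among them TGFBR2 by 0.90 ± 0.16 (adjusted p = 0.0109), TGFB1 by 0.76 ± 0.17 (0.0315) and TGFB2 by 0.74 ± 0.16 (0.0329). These calls were less firm than that of SNAI2. The falls numbered 1 to 3 without 1/7MC+Pyr replicate 1, 2 or 3 or 1/7MC+Pyr+FGF replicate 1 or 2, and the 1 rise was absent without 1/7MC+Pyr replicate 3. TGFBR2 was lost when 1/7MC+Pyr replicate 1 (0.0595) was left out, as with 1/7MC+Pyr+FGF replicate 1 (0.0577). TGFB1 held only without 1/7MC+Pyr replicate 2, and TGFB2 only without 1/7MC+Pyr+FGF replicate 3.

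Partners bind, modify or antagonise the 7 factors. Of 35 tested, 8 rose and 11 fell in 1/7MC against MC (median -0.091 log2), and 6 and 1 against MC replicate 1 alone. The share that rose was thus near the 23.7% of all genes. The falls were 7 without MC replicate 2 or without 1/7MC replicate 1. LOXL2, a lysyl oxidase known to bind SNAI1, rose by 2.15 ± 0.17 log2, and the kinase gene LATS2 by 0.90 ± 0.12. ID1 and ID2, which sequester E proteins and so limit Twist dimers, rose by 0.90 ± 0.16 and 1.55 ± 0.17. Of the E proteins, TCF12 rose by 0.67 ± 0.15 (adjusted p = 0.0028), lost against MC replicate 1 alone (0.155), TCF3 differed by 0.08 ± 0.08 (0.447), and TCF4 by 0.49 ± 0.23 (0.105) over 12 libraries and -0.10 ± 0.17 against MC replicate 1 alone. CTBP2, a ZEB corepressor, fell by 0.30 ± 0.08 (adjusted p = 0.00892), lost without MC replicate 2 (0.054) and against MC replicate 1 alone (0.382). KDM1A, the demethylase recruited by the SNAG domain of Snail proteins, differed by -0.09 ± 0.09 (adjusted p = 0.413).

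With Pyr 0 partners rose and 6 fell, together near the 18.1% of all genes that passed. The 3 that were higher at an unadjusted p under 0.05 did not pass, and DESeq2 called 1, as did edgeR without 1/7MC replicate 2. ID1 fell by 0.81 ± 0.16 (adjusted p = 0.00396) and ID2 by 1.26 ± 0.17 (adjusted p = 0.000351), in the step in which TWIST1 fell, and both held with any 1 library left out. With FGF edgeR called 0 of 35 partners in either direction. At an unadjusted p under 0.05, 6 were higher and 1 lower, DESeq2 called 3 rises, and edgeR 2 without 1/7MC+Pyr+FGF replicate 2. ID1 stood at 236 CPM against 156 CPM, a difference of 0.60 ± 0.16 (adjusted p = 0.0637).

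Other factors of the same programme were counted apart. Of 29 chosen, 27 had an entry. Those too low to be tested included GSC, TBXT, FOXF1, TCF21, MEOX2, HAND1, HAND2 and ALX4, so the counts cover only the factors with enough reads. Of 18 tested, 11 rose and 2 fell in 1/7MC against MC (median 1.09 log2, 9 and 1 against MC replicate 1 alone). The 2 falls became 1 without MC replicate 2 or 3 or 1/7MC replicate 2 or 3. FOXC2 rose by 3.60 ± 0.25 log2, from 0.719 to 8.80 CPM, and PRRX2, the paralog of PRRX1, by 1.81 ± 0.24. MSX2 rose by 1.57 ± 0.16, SOX9 by 1.19 ± 0.21 and SOX4 by 1.02 ± 0.18. MSX1, at 1.17 ± 0.61, did not pass (adjusted p = 0.14), and SNAI3, the third Snail gene, was too low to be tested.

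With Pyr 2 of these 18 rose and 6 fell (1 rose without 1/7MC replicate 1 or 1/7MC+Pyr replicate 1). MSX2 fell by 1.41 ± 0.15 (adjusted p = 7.41e-05) and SOX9 by 1.18 ± 0.21 (adjusted p = 0.00238). FOXC2 fell by 0.91 ± 0.21 (adjusted p = 0.0106), lost without 1/7MC+Pyr replicate 3 (0.0544). SOX4 fell by 0.65 ± 0.18 (adjusted p = 0.0239), a call lost when 1/7MC replicate 2 (0.0741) or 3 (0.0743), or 1/7MC+Pyr replicate 2 (0.0721) or 3 (0.087), was left out. PRRX2, at -0.48 ± 0.23 (adjusted p = 0.174), did not pass, but did with only the 2 groups fitted (-0.47, adjusted p = 0.046). Its difference from PRRX1 was not tested. With FGF 1 rose, MSX2, by 0.96 ± 0.15 (adjusted p = 0.00772), and 4 fell. The 4 falls became 2 without 1/7MC+Pyr+FGF replicate 1, and 1 or 2 when 1/7MC+Pyr replicate 1 or 3, respectively, was left out. MSX2 thus had the same signs as TWIST1 in the 3 steps. ZEB2 and ID1 had these signs too, though neither passed with FGF added to Pyr. Neighbouring steps share libraries, so opposite signs in them are not independent.

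Markers of cell types that such cultures could hold also differed between the groups, and not all in the same direction. The summed CPM of 16 fibroblast markers was 4724 to 5112 in MC, 15544 to 21521 in 1/7MC, 17729 to 27112 in 1/7MC+Pyr and 11584 to 17129 in 1/7MC+Pyr+FGF. None of the 16 was at 0 throughout a group, and 12 of them also stand in the mesenchymal list. In 1/7MC against MC all 16 rose (15 against MC replicate 1 alone). PDGFRA, a defining fibroblast receptor, averaged 1.72, 5.74, 1.76 and 1.58 CPM in the 4 groups in the same order, and FAP, the fibroblast activation protein, 0.091, 4.47, 0.731 and 0.512 CPM. Others of the list were higher with Pyr: the collagen gene COL6A3 averaged 13.7, 84.8, 234.7 and 70.0 CPM and the proteoglycan gene LUM 56.1, 73.9, 115 and 117 CPM. With Pyr 2 of the 16 rose, COL6A3 by 1.47 ± 0.26 log2 (adjusted p = 0.00227) and LUM by 0.64 ± 0.12 (adjusted p = 0.00352), and 6 fell, among them PDGFRA and FAP. COL1A1, at 0.70 ± 0.27 (adjusted p = 0.0925), and COL1A2, at 0.58 ± 0.20 (adjusted p = 0.0576), did not pass. The rises became 4 by DESeq2 and without 1/7MC replicate 2 or 1/7MC+Pyr replicate 2. With FGF 4 fell and 0 rose (0 higher at an unadjusted p under 0.05 by edgeR, and 0 by DESeq2), and the falls became 1 without 1/7MC+Pyr replicate 1 or 3 or 1/7MC+Pyr+FGF replicate 1 or 2, and 2 without 1/7MC+Pyr+FGF replicate 3.

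The sum of 8 pluripotency markers was 3930 to 4063 CPM in MC, 2364 to 2684 in 1/7MC, 3937 to 4207 in 1/7MC+Pyr and 3265 to 3687 in 1/7MC+Pyr+FGF, and none was at 0 throughout a group. POU5F1, the core pluripotency factor, averaged 1093, 781, 1165 and 1150 CPM in the 4 groups, and NANOG, another such factor, 38.4, 40.4, 73.0 and 90.5 CPM. These markers of the labelled embryonic stem cells were thus present in each group, at levels that differed. Of the 8, 7 fell in 1/7MC against MC (6 against MC replicate 1 alone), 7 rose with Pyr, and 1, the DNA methyltransferase gene DNMT3B, fell with FGF by 0.54 ± 0.09 log2 (adjusted p = 0.0073). The sum of 14 endothelial and blood markers ran from 42.5 to 71.3 CPM over all libraries. The leukocyte gene CD53 averaged only 0.0106 CPM in MC and was at 0 in every library outside MC. TYROBP, a myeloid adaptor, was at 0 in every 1/7MC library and averaged 0.0371 CPM in MC, 0.0469 in 1/7MC+Pyr and 0.0312 in 1/7MC+Pyr+FGF. Both genes were too low to be tested. Of the 12 tested, 3 rose and 4 fell in 1/7MC against MC (3 and 2 against MC replicate 1 alone). The share that rose was near the 23.7% of all genes, and the 4 falls stand beside 21.3% of all genes. These counts are therefore not read as a result on these cell types. The rises were EMCN, the endothelial sialomucin endomucin, LAPTM5, a lysosomal protein of blood cells, and PECAM1, an endothelial adhesion molecule. EMCN averaged 0.165, 8.08, 1.07 and 1.35 CPM from MC to 1/7MC+Pyr+FGF, highest in 1/7MC as TWIST1 and PRRX1 were. LAPTM5 averaged 2.35, 8.97, 8.57 and 5.48 CPM, and PECAM1 0.0447, 0.483, 0.208 and 0.185 CPM. PECAM1 thus lay near the floor in each group. It may have passed the filter on low counts only through 1/7MC, so its rise there carries no weight. The falls were KDR, TEK, ESAM and CLDN5, of which KDR, an endothelial receptor, averaged 9.90, 4.40, 10.9 and 16.7 CPM. With Pyr KDR, TEK and CLDN5 rose and EMCN fell. The part of these cell types in the levels of the 7 factors was not tested.

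By likeness of pattern, measured as the root mean square difference of centred log2 CPM over the 10 libraries other than MC replicates 2 and 3 and over 14360 other genes, the 7 factors had different neighbours. The genes closest to SNAI2 were BHLHE40 (0.13) and RFTN1 (0.16), where the median gene was at 1.07. Closest to TWIST1 were RARB (0.18) and MEIS2 (0.21), with a median of 0.84, and closest to PRRX1 were GXYLT2 (0.21) and ZNF827 (0.23), with a median of 0.98. SNAI1 lay nearest CEBPD (0.087) and COMTD1 (0.11), with a median of 0.40. ZEB1 lay nearest BTBD3 (0.044) and DYNC1LI2 (0.054), with a median of 0.30. TWIST2 lay nearest CACNG5 (0.19) and TRIM14 (0.20), with a median of 0.56. ZEB2 lay nearest NDFIP1 (0.19) and ACADM (0.19), with a median of 0.45. Among the 7 themselves the closest pair was SNAI1 and ZEB1 (0.22) and the farthest SNAI2 and TWIST2 (1.34). This measure is small for any genes that vary little, and SNAI1 and ZEB1 varied least of the 7, over 0.88 and 0.54 log2. SNAI2 was nearer to PRRX1 (0.62) than to SNAI1 (0.81), and TWIST1 was nearer to ZEB2 (0.56) than to TWIST2 (1.08). These distances share libraries, depth and scaling and are a description without a test.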

How the data were processed

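The deposited counts are whole numbers per gene, trimmed, aligned and counted with fastp 0.19.7, HISAT2 2.1.0 and featureCounts of Subread 2.0 on bosTau9, per the submitters' processing notes. A second deposited table, named as TPM, held a signal equal to count over length times a constant of 4.94, with column sums of 66798 to 118022, so each column was rescaled to a common total. Entrez identifiers were named from RefSeq (ARS-UCD2.0), which matched 19195 of 19285 entries, and 400 entries sharing an identifier were left out. Counts were filtered (filterByExpr), scaled by TMM and fitted with edgeR 4.0.16 (R 4.3.3), 1 coefficient per group, adjusting over 13920 genes (14361 with MC replicate 1 alone). On data simulated for 1/7MC against MC, 97% of 200 genes changed 2-fold among 13812 were recovered and 2.02% of calls were false. The simulation gave every gene the same variability, changed only genes over 1 CPM and changed far fewer genes than passed in the data. These shares therefore need not hold for the real libraries. DESeq2 1.42.0 and limma 3.58.1 (pseudocount 0.5) served as alternatives. Counting error depends on depth, given in the text. Members and lists were chosen with earlier results of these data known. Named genes were all members, fixed genes by role, and the 2 nearest patterns per member. The labels do not say whether replicate numbers pair libraries, and the main fits did not use them as pairs (correlations of deviations -0.32 to 0.33). No sequences are shown.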

Additional observations from a re-analysis of the deposited data

How the results depend on the processing

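Depth limits the low genes most: TWIST2, ZEB2 and, in MC, SNAI2 and PRRX1 rest on 37 to 226 counts a library. Counts also depend on the gene length counted. Over all alternatives, single members gave 609 values with the same direction and side of the threshold, 40 that lost the threshold and 2 that changed sign. The calls of SNAI2 held in every setting, as did those of TWIST1 save for the length-scaled signal with FGF added, where 0 members rose. The cause of each change below was not tested.

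With MC replicate 1 standing for MC, 3438 genes changed in 1/7MC, 1394 in 1/7MC+Pyr and 1723 in 1/7MC+Pyr+FGF. Members that fell then numbered 0 in the first and 0 in the second, and members that rose numbered 3 in each of the last 2. There, GRHL2 (-0.58), TGFBR1 (-0.091), HMGA2 (-0.13) and TCF4 (-0.10) changed sign in 1/7MC against MC, and with the strict filter CDH2 (-0.022). For TWIST1 minus TWIST2 the range of group means was 3.50 with MC replicate 1 added, 3.52 with all 12 libraries (adjusted exact permutation p = 0.0075 and 0.00136), and 1.13 to 1.55 with 1 library left out.

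With FGF added to Pyr, DESeq2 changed 902 genes against 384. The length-scaled signal turned OCLN (-0.082), TGFBR1 (-0.0043), TCF12 (-0.050), KDM1A (-0.070) and ID2 (-0.025), and scaling by library size only turned OCLN (-0.011). None of these passed in either fit.

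Replicate numbers were tried as a replicate block, since the labels do not say whether they pair libraries. In no comparison did all 3 same-numbered pairs correlate over 0.1. In 1/7MC+Pyr+FGF against 1/7MC each number correlated best with its own, a hint from the data only. Correlations over so few libraries cannot settle whether the numbers are pairs. With the block, 181 genes changed with FGF added to Pyr, and 1 member fell in place of 2 (PRRX1, adjusted p = 0.0774). ZEB2 with Pyr had an adjusted p of 0.0807.

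With 1 library left out, genes changed ranged from 1423 to 2252 with Pyr, 127 to 439 with FGF added to Pyr, 2571 to 5151 in 1/7MC+Pyr against MC and 3015 to 5337 in 1/7MC+Pyr+FGF against MC. The lowest came without 1/7MC+Pyr replicate 3, without 1/7MC+Pyr replicate 1, and in both comparisons with MC without MC replicate 2. Members that fell with FGF added to Pyr were 1 to 2, and members that rose in 1/7MC+Pyr+FGF against MC were 3 (without MC replicate 2) to 4. Ranges that crossed 0 in 1/7MC against MC were -0.12 to 0.092 for CDH2 and -0.43 to 0.68 for GRHL2. With Pyr they were -0.062 to 0.29 for MMP2 and -0.32 to 0.020 for TGFB1. With FGF added to Pyr they were -0.50 to 0.028 for TWIST2, -0.13 to 0.013 for ZEB1, -0.14 to 0.068 for CDH2, -0.080 to 0.25 for ID2, -0.031 to 0.079 for KDM1A, -0.020 to 0.037 for OCLN, -0.34 to 0.19 for PRRX2, -0.16 to 0.12 for SMAD7, -0.042 to 0.12 for TCF12 and -0.19 to 0.024 for TCF4.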

Other observations

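Neural crest genes, among which the Snail, Twist and ZEB factors are classically placed, were followed as a list of 12 tested genes, 1 of which also stands among the other factors. In 1/7MC against MC 9 rose and 2 fell (median 1.96 log2, 6 and 2 against MC replicate 1 alone). With Pyr 8 fell and 1 rose (median -1.32 log2), the rise numbering 2 without 1/7MC+Pyr replicate 2 and 0 without 1/7MC replicate 3. With FGF edgeR called 0 of 12 in either direction, 0 were higher and 3 lower at an unadjusted p under 0.05, and DESeq2 called 1 fall, as did the fit without 1/7MC+Pyr replicate 2. Their summed CPM was 101 to 144 in MC, 323 to 367 in 1/7MC, 180 to 189 in 1/7MC+Pyr and 160 to 200 in 1/7MC+Pyr+FGF, ranges in which 1/7MC lies above the other groups as it does for TWIST1 and PRRX1. The genes were SOX10, FOXD3, TFAP2A, TFAP2B, PAX3, ETS1, SOX5, NR2F1, NR2F2, ERBB3, MITF and EDNRB. Such a sum can rest on a few abundant genes, and their single values are not given here.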
